A study of Mus musculus with 12 samples.

Results

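Cholesterol synthesis and efflux genes were followed in mouse bone marrow macrophages, with and without BMI1 and with and without co-culture with myeloma cells. The list held 32 genes, picked by symbol for their known roles, of 55573 genes in the count table. It was divided into 18 genes of sterol synthesis, 6 genes of SREBP control, 6 genes of efflux and LXR control, and 2 genes of storage and oxysterol formation (Soat1 and Ch25h). All 32 were found once in the table, and 32 of 32 passed the filter on low counts, which 14197 genes passed. BMI1 is a Polycomb protein that helps to keep genes silent. By RNA-seq, 4 groups with 3 libraries each were measured, namely wt and BMI1-KO MΦs and wt and BMI1-KO MM-MΦs. Library totals were 9662279 to 11142768 counts.

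The wt mice were C57BL/6 BMI1fl/fl mice without Cre, and the BMI1-KO mice were BMI1fl/fl Mx1-Cre mice. Both genotypes were injected at 6 to 8 weeks of age with 5 doses of poly I:C at 15 mg/kg, so the wt groups had also been given this interferon inducer. Mx1-Cre is switched on by interferon, is not limited to macrophages and acts in many cells of the marrow. Marrow was taken 4 weeks later, and 7 days of culture in M-CSF (5 ng/mL) gave MΦs. For MM-MΦs, the cells were then kept for 48 h with 5TGM1, a mouse myeloma cell line. CD11b+ F4/80+ cells were sorted from all 4 groups before RNA extraction. No source used here says whether each replicate was a mouse of its own. The p-values therefore cover only the spread between these samples, which may be technical.

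Cells make sterols from acetyl-CoA, first through mevalonate to farnesyl diphosphate and then from squalene to cholesterol. When membranes are short of cholesterol, SCAP carries the SREBP factors out of the endoplasmic reticulum and the synthesis genes are turned on, whereas INSIG proteins hold SCAP back when sterol is plentiful. Oxysterols activate the LXR receptors, which turn on the export pumps ABCA1 and ABCG1 and the lipid carrier APOE. This branch is prominent in macrophages, which take up cells and lipoproteins and have to dispose of their cholesterol. Ch25h encodes an enzyme that hydroxylates cholesterol to an oxysterol, and it is known as a gene that interferon induces in macrophages.

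The sequences upstream of 4 members are shown because they represent the branches that the results turn on: Hmgcs1 for synthesis, Insig1 for SREBP control, Abca1 for efflux, and Ch25h. They are RefSeq sequences of GRCm38.p6, each the 250 bases before the annotated start, written 5′ to 3′ on the strand of the gene. Capitals mark matches, on either strand, to TCACNCCAC (a sterol regulatory element core) or CCAAT (the box bound by NF-Y, which reads ATTGG on the other strand). The windows are chr13:119690101-119690350 on the plus strand for Hmgcs1, chr5:28071162-28071411 on the plus strand for Insig1, chr4:53159896-53160145 on the minus strand for Abca1 and chr19:34475149-34475398 on the minus strand for Ch25h.
Hmgcs1: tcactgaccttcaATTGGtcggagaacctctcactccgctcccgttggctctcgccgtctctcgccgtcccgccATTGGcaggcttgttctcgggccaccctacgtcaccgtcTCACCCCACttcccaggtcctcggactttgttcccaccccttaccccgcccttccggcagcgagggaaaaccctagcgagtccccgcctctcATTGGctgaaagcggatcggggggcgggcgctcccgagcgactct
Insig1: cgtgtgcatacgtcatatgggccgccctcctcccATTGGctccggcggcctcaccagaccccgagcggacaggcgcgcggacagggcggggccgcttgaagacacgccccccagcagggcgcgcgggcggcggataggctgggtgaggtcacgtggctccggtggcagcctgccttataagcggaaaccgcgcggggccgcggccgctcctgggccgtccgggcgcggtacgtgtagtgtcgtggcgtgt
Abca1: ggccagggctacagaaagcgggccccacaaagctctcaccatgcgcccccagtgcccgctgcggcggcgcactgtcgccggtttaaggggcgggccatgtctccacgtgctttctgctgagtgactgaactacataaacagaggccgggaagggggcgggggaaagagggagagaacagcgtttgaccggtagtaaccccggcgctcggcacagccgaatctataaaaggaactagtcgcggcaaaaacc
Ch25h: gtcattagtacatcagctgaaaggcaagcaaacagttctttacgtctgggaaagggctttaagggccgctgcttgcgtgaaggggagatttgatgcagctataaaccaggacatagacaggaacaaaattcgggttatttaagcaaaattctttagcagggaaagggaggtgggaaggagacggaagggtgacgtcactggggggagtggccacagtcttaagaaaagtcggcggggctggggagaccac

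Motifs were counted in windows from 250 bases before to 50 bases after the start, which RefSeq gave for 27 of the 32 members. Abcg1, Fdps, Stard4, Fdft1 and Sqle were not matched. CCAAT was found on either strand for 14 of 15 synthesis genes and 4 of 5 SREBP control genes, but for 1 of 5 efflux and LXR genes (Mylip), and 41.1% of all genes with a window held it. TCACNCCAC was found only for Hmgcs1 among the 27, and in 1.44% of all genes. The Hmgcs1 match began 137 bases before the start (position −137) and overlapped none of its CCAAT matches. GAAANNGAA, the core of the interferon-stimulated response element, was found for Apoe and Ebp and not for Ch25h, and in 9.76% of all genes. A fixed pattern for DR4, the repeat that LXR binds, was matched in 0 of 27 windows and in 0.104% of all genes. The Abca1 sequence above holds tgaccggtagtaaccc, in which the similar letters tgaccg and taaccc lie 4 bases apart. The pattern did not match this stretch, so its count of 0 does not show that Abca1 or other members lack such a repeat. Motif matches describe letters and not binding sites.

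Per length, the export side of the list stood far above the synthesis side. Levels between genes were compared as FPKM, the deposited values scaled by exon length and library total. Apoe had the highest mean FPKM over the 12 libraries at 4278, followed by Abca1 at 93.5, the cholesterol esterifying enzyme Soat1 at 76.6, Insig1 at 54.0 and Mylip, a ubiquitin ligase for lipoprotein receptors, at 37.6. The median of these mean levels was 32.8 for the efflux and LXR genes, 11.5 for the SREBP control genes and 5.28 for the synthesis genes. Within synthesis they ran from 1.5 for Idi1, which interconverts the isoprene units, to 21.6 for Hmgcs1, the enzyme that makes HMG-CoA. The order among neighbours is loose: Abca1 spanned 42.8 to 149.4 FPKM and Soat1 48.8 to 96.5 over the 12 libraries. Ch25h ranked 30 of 32, with values from 0 to 15.6 FPKM.

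In these groups the largest differences in the list were those of Ch25h between genotypes, and the efflux and LXR genes differed more between replicate numbers than between groups. The heat map of the 32 genes by library shows both patterns.

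**Figure D1:**
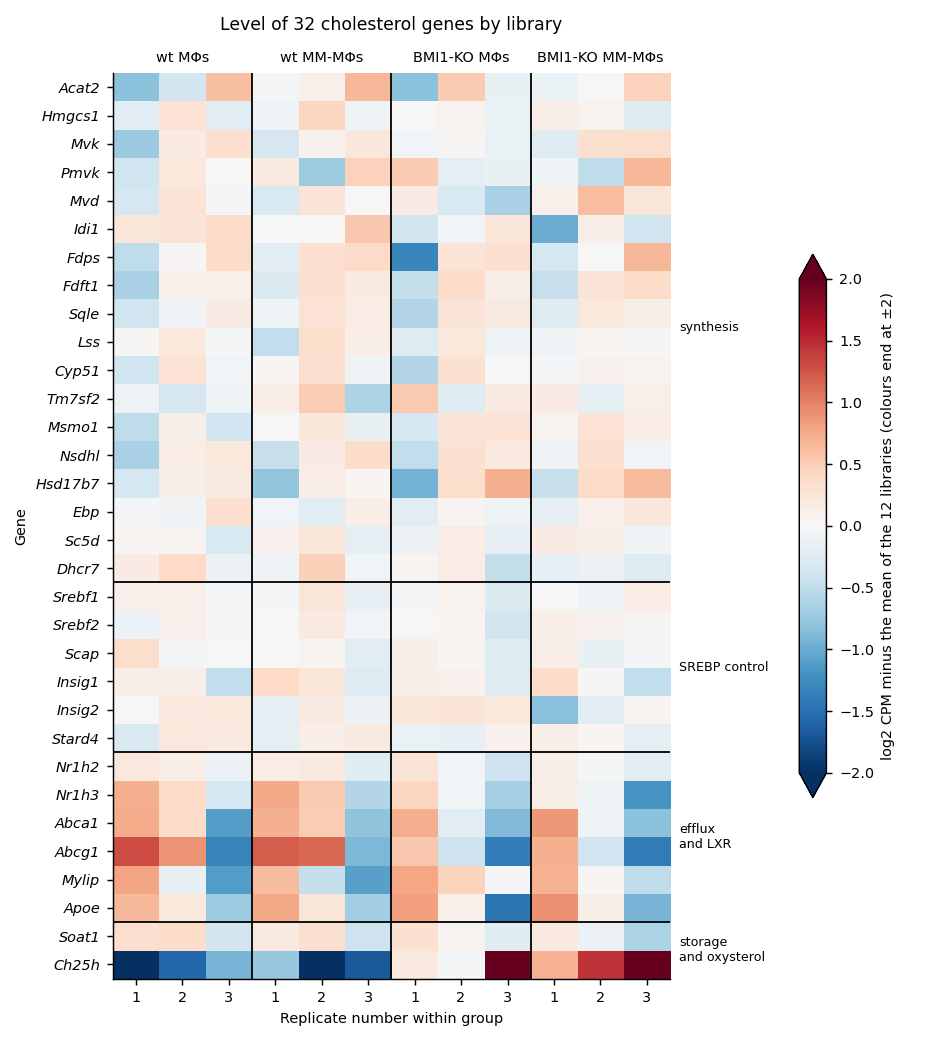
Level of each of the 32 genes (vertical axis) in each of the 12 libraries (horizontal axis, by group and replicate number), as log2 CPM minus the gene's mean over the 12 libraries. Ch25h is blue in the 6 wt libraries (−2.60 to −0.76) and lies higher in the 6 BMI1-KO libraries (−0.04 to 4.21, drawn at the end of the scale above 2), and the 6 efflux and LXR genes are lowest in replicate 3 of each group.

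Ch25h lies on chromosome 19 of GRCm38 from 34473778 to 34475164 (ENSMUSG00000050370). In the order of replicates 1, 2 and 3, wt MΦs had 1, 2 and 5 counts of it, and wt MM-MΦs had 5, 0 and 2. A count of 0 allows up to 3 counts at this depth. BMI1-KO MΦs had 11, 10 and 103 counts, and BMI1-KO MM-MΦs had 16, 30 and 241. All 6 BMI1-KO libraries lay above all 6 wt libraries, which held for 131 of 14197 genes tested (0.923%). Ch25h passed the filter on low counts only through the BMI1-KO libraries, since no wt library reached the minimum count of 10, so a gene admitted in this way had to be higher there. The highest value of each BMI1-KO group was in replicate 3.

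On the CPM scale, which divides each count by the scaled total of its library, Ch25h was at 0.225 ± 0.253 (SD, n = 3) in wt MM-MΦs and 8.75 ± 11.1 (SD, n = 3) in BMI1-KO MM-MΦs. The log2 fold change was 5.21 (SE 1.36), which did not pass over all genes (edgeR adjusted p = 0.429). Summed over libraries, 287 counts stood against 7, a scaled ratio of 41.7 (95% counting interval 20.0 to 104.6). Such intervals cover counting error only, not the spread between libraries. For MΦs kept alone the level was 0.244 ± 0.166 CPM (SD, n = 3) in wt and 3.82 ± 4.79 CPM (SD, n = 3) in BMI1-KO. That log2 fold change was 3.87 (SE 1.33, edgeR adjusted p = 0.667), and the scaled ratio of 124 to 8 counts was 15.6 (95% counting interval 7.69 to 37.0).

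Whether Ch25h is called turned on the test and on the block, and the size of its difference on single libraries. With no filter on low counts edgeR did not call it either (adjusted p = 0.15 in MM-MΦs and 0.594 in MΦs). DESeq2 called it in MM-MΦs (log2 fold change 5.28, adjusted p = 0.00345) and not in MΦs (3.94, adjusted p = 0.102), and limma-voom called it in neither. Fitted with a block for the replicate number across the 4 groups, edgeR called it in MM-MΦs (4.83, SE 0.80, adjusted p = 0.00893) and in MΦs (3.69, SE 0.81, adjusted p = 0.0418). That block matches wt and BMI1-KO libraries by number, although the numbers were not shown to pair libraries between genotypes. Without BMI1-KO MM-MΦ replicate 3 the log2 fold change fell to 3.33 (edgeR adjusted p = 0.904), and without BMI1-KO MΦ replicate 3 to 2.01 (edgeR adjusted p = 0.971). Without all 4 libraries numbered 3 the values were 3.17 in MM-MΦs (edgeR adjusted p = 0.631) and 2.69 in MΦs (edgeR adjusted p = 0.891).

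Co-culture with myeloma cells moved Ch25h less than the spread between libraries. From MΦs to MM-MΦs, the log2 fold change was −0.15 (SE 1.68) in wt, where both groups were at or near the count floor, and 1.19 (SE 1.02) in BMI1-KO (edgeR adjusted p = 1.0 in both). In BMI1-KO cells the MM-MΦ library was above the MΦ library of the same number for 3 of 3 numbers, and the scaled ratio of 287 to 124 counts was 2.36 (95% counting interval 1.9 to 2.93). Without BMI1-KO MM-MΦ replicate 3 the BMI1-KO value turned to −0.68. The interaction of genotype and co-culture was 1.35 (SE 2.03, edgeR adjusted p = 1.0).

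Interferon-induced genes and neighbours of Ch25h were read beside it. The summed level of 18 interferon-induced genes was 397 to 453 CPM in wt MΦs, 1017 to 1175 CPM in wt MM-MΦs, 385 to 629 CPM in BMI1-KO MΦs and 1323 to 1931 CPM in BMI1-KO MM-MΦs. From MΦs to MM-MΦs, 10 of the 18 rose in wt (median log2 fold change 1.91) and 12 of the 18 in BMI1-KO (2.01), as called by edgeR. DESeq2 called 14 and 16 of them, and limma-voom 2 and 13. Between genotypes edgeR and limma-voom called 0 of 18 and DESeq2 1 of 18 in either culture, with 8 at an unadjusted p under 0.05 in MM-MΦs and 5 in MΦs by edgeR. Their median log2 fold change between genotypes was 0.49 in MM-MΦs (17 of 18 above 0) and 0.39 in MΦs (16 of 18 above 0), beside −0.01 for all genes tested in both. In wt cells, where 10 of those genes rose with co-culture, Ch25h had 8 counts over the 3 MΦ libraries and 7 over the 3 MM-MΦ libraries. The part of interferon in the level of Ch25h was not tested.

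Gm26902, an antisense neighbour that overlaps 11.5% of the exonic bases of Ch25h, had 0, 0 and 0 counts in wt MΦs, 1, 0 and 0 in wt MM-MΦs, 3, 5 and 27 in BMI1-KO MΦs and 3, 8 and 8 in BMI1-KO MM-MΦs. It too was higher in BMI1-KO libraries. The strand setting of the counting is not stated, so reads of this pair cannot be told apart in the shared bases. The 8 neutrophil genes, markers of another marrow cell, summed to 6.5 to 20.7 CPM in wt libraries and 8.62 to 157.8 CPM in BMI1-KO libraries. In the 2 libraries with most Ch25h, BMI1-KO MΦ and MM-MΦ replicate 3, that sum was 8.62 and 16.6 CPM. For replicates 1 and 2 it was 35.5 and 83.4 CPM in BMI1-KO MΦs and 17.5 and 157.8 CPM in BMI1-KO MM-MΦs. The 5 neutrophil genes tested were all above 0 between genotypes, with median log2 fold changes of 2.18 in MM-MΦs and 2.19 in MΦs. None of them was called by edgeR. The part of such cells in the level of Ch25h was not tested. The 5 T and NK cell markers reached at most 0.341 CPM in sum, while the 8 macrophage markers summed to 12440 to 19080 CPM.

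**Figure D2:**
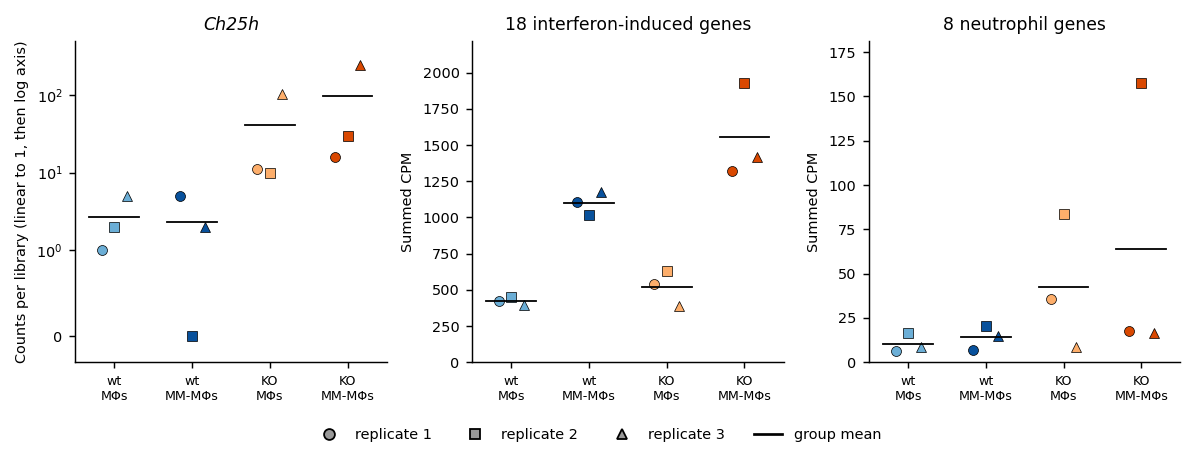
Ch25h counts per library (left, linear to 1 and then a log axis), the summed CPM of 18 interferon-induced genes (middle) and the summed CPM of 8 neutrophil genes (right) for the 4 groups, with 1 point a library, its shape giving the replicate number, and a line at the group mean. Ch25h is at 0 to 5 counts in wt libraries and 10 to 241 in BMI1-KO libraries, whereas the interferon-induced genes separate MM-MΦs from MΦs in both genotypes.

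For the other 31 members, no difference between genotypes passed the test. Between BMI1-KO and wt MM-MΦs, edgeR called 0 of 32 members, against 0.0634% of all genes tested (9 of 14197), and 1 member (Ch25h) had an unadjusted p under 0.05, against 5.02% of all genes. DESeq2 called 1 of 32 (Ch25h, beside 0.627% of all genes), limma-voom 0 (beside 0.0634%) and edgeR with the replicate block 2 (Ch25h and Nr1h3, beside 1.27%). The libraries did not overlap for 1 member higher in BMI1-KO (Ch25h, against 4.4% of all genes) and 1 lower (Dhcr7, against 4.46%). In MΦs kept alone, edgeR called 0 of 32, against 0.0493% of all genes, with 1 member (Ch25h) at an unadjusted p under 0.05, against 5.77%. There DESeq2 called 0 (beside 0.55% of all genes), limma-voom 0 (beside 0.0563%) and edgeR with the block 1 (beside 1.45%). The libraries did not overlap for Ch25h, which was higher (against 5.17%), and for Idi1, which was lower (against 4.83%).

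The synthesis genes as a group were centred near 0 between genotypes. Their median log2 fold change was −0.01 in MM-MΦs, with 9 of 18 above 0 and 9 below, and 0.02 in MΦs, with 10 above and 8 below, beside −0.01 for all genes tested in both. With upper quartile scaling the median in MM-MΦs turned to 0.02, and 10 and 11 were above 0. The 95% intervals of single genes in MM-MΦs reached from −1.26 (Idi1) to 1.32 (Hsd17b7), so the intervals of these members did not exclude a 2-fold change in that direction. The intervals of Hmgcs1 were narrower, −0.52 to 0.30 in MM-MΦs and −0.40 to 0.42 in MΦs. The summed level of the 18 genes was 476 to 636 CPM in wt MΦs, 529 to 693 CPM in wt MM-MΦs, 479 to 646 CPM in BMI1-KO MΦs and 548 to 624 CPM in BMI1-KO MM-MΦs, and these ranges overlap.

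Hmgcs1 (chromosome 13, 119690379 to 119708260), an early enzyme and the most abundant of the 18 per length, had 93.1, 132.6 and 91.5 CPM in wt MM-MΦs and 108.4, 103.2 and 82.8 CPM in BMI1-KO MM-MΦs. The groups overlapped. The log2 fold change in MM-MΦs was −0.11 (SE 0.19, edgeR adjusted p = 0.999) and that in MΦs 0.01 (SE 0.19). Sqle, the squalene epoxidase, a rate-limiting step of the sterol arm, had 38.4, 50.2 and 45.2 CPM in wt MM-MΦs and 34.6, 47.5 and 44.3 CPM in BMI1-KO MM-MΦs. Its log2 fold change was −0.08 (SE 0.23) in MM-MΦs and 0.09 (SE 0.23) in MΦs.

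Idi1 and Dhcr7 had the smallest unadjusted p among the synthesis genes that were lower in BMI1-KO MM-MΦs. Idi1 had 5.99, 6.02 and 6.66 CPM in wt MΦs and 3.85, 4.86 and 5.99 CPM in BMI1-KO MΦs. It had 5.09, 5.07 and 7.37 CPM in wt MM-MΦs and 2.44, 5.51 and 3.76 CPM in BMI1-KO MM-MΦs. The MΦ groups did not overlap and the MM-MΦ groups did, by BMI1-KO replicate 2. The log2 fold changes were −0.58 (SE 0.31, edgeR adjusted p = 0.999) in MM-MΦs and −0.34 (SE 0.31, edgeR adjusted p = 0.976) in MΦs.

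Dhcr7, the reductase of the last step to cholesterol, had 53.8, 79.0 and 54.6 CPM in wt MM-MΦs and 50.3, 52.4 and 47.3 CPM in BMI1-KO MM-MΦs. Every BMI1-KO value lay below every wt value. The log2 fold change was −0.32 (SE 0.20, edgeR adjusted p = 0.999), and −0.23 (SE 0.20, edgeR adjusted p = 0.976) in MΦs, where the groups overlapped. On the higher side, the decarboxylase gene Mvd was at 0.34 (SE 0.27) and the sterol ketone reductase gene Hsd17b7 at 0.41 (SE 0.41) in MM-MΦs. In MΦs these places were taken by Msmo1, which oxidises the methyl groups of sterols, at 0.33 (SE 0.20), and by the sterol reductase gene Tm7sf2 at 0.36 (SE 0.30).

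The 6 SREBP control genes had the least spread between libraries of the branches. Their median SD of log2 CPM within groups was 0.193, beside 0.349 for all genes tested and 0.338 for the synthesis genes. Srebf2, the SREBP that drives synthesis, had 245, 281 and 235 CPM in wt MM-MΦs and 267, 261 and 249 CPM in BMI1-KO MM-MΦs, a log2 fold change of 0.03 with a 95% interval of −0.26 to 0.32. Srebf1, Scap, Insig1, Insig2 and the sterol carrier gene Stard4 had log2 fold changes of −0.27 to 0.04 between genotypes in MM-MΦs. In MΦs the 6 genes ran from −0.14 to 0.09.

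**Figure D3:**
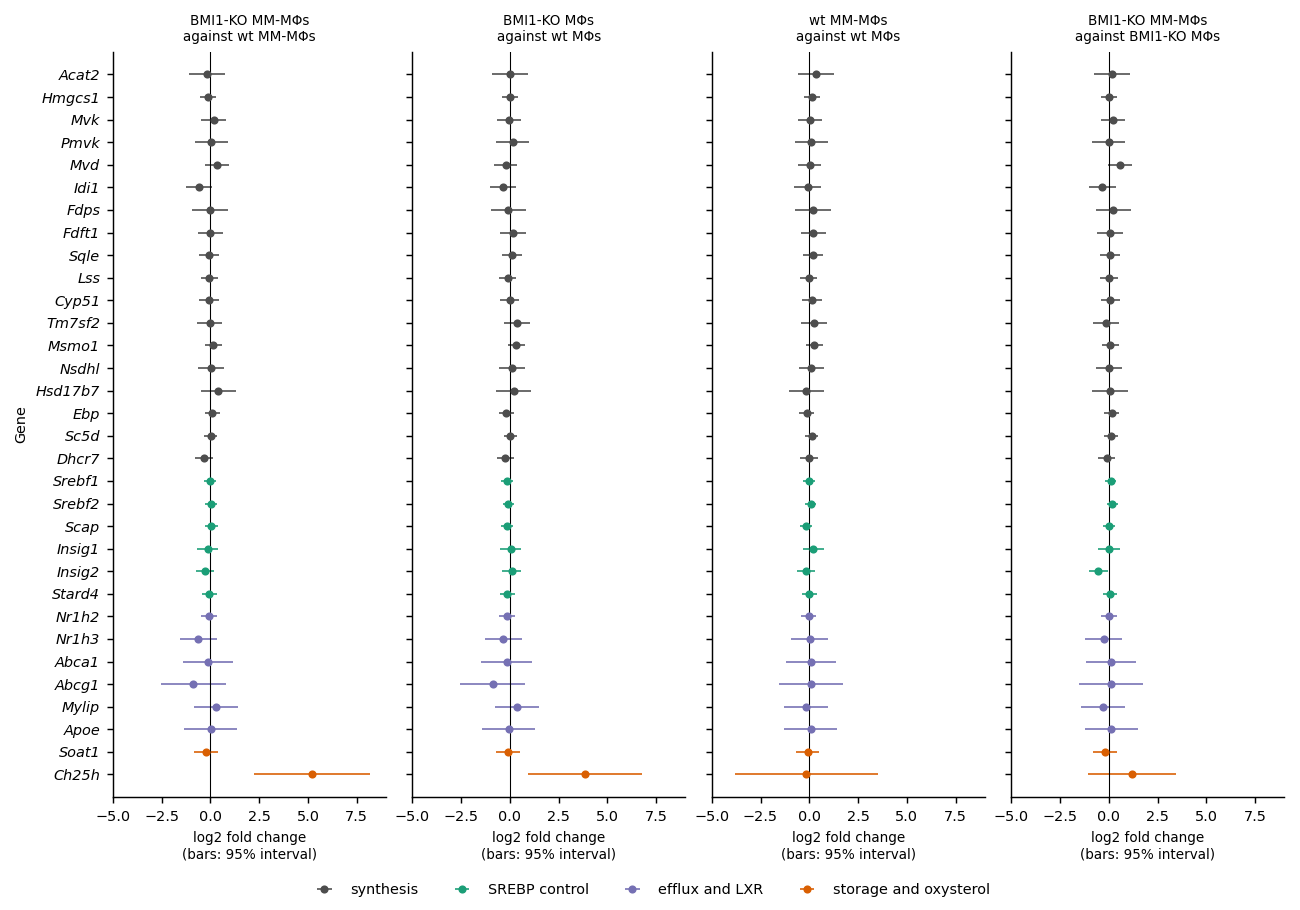
Log2 fold change of each of the 32 genes (vertical axis) in 4 comparisons (panels), with colours for the branch. Bars give the 95% interval of the edgeR fit without a replicate block. Intervals lie across 0 for all members but Ch25h in both comparisons of genotypes and Insig2 in BMI1-KO MM-MΦs against BMI1-KO MΦs, and they are widest for Ch25h, Abcg1, Apoe and Abca1.

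Without a replicate block, no efflux or LXR gene differed between genotypes beyond its spread, and with the block over all 4 groups Nr1h3 passed in MM-MΦs. The spread of this branch was the widest of the branches with more than 2 genes (median SD of log2 CPM within groups 0.804). The median log2 fold change of the 6 genes was −0.10 in MM-MΦs (2 of 6 above 0, 4 below) and −0.15 in MΦs (1 above, 5 below). Abca1 (chromosome 4, 53030787 to 53159895), the pump that loads cholesterol onto apolipoproteins, had 1444, 1249 and 503 CPM in wt MM-MΦs and 1609, 832 and 496 CPM in BMI1-KO MM-MΦs. In MΦs it had 1472, 1131 and 408 CPM in wt and 1456, 748 and 475 CPM in BMI1-KO. The genotypes overlapped in both cultures, with log2 fold changes of −0.12 (SE 0.59) and −0.17 (SE 0.59).

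Abcg1 (chromosome 17, 31057675 to 31117988), which passes cholesterol to mature lipoproteins, had 383, 367 and 88.9 CPM in wt MM-MΦs and 271, 126 and 62.5 CPM in BMI1-KO MM-MΦs. In MΦs it had 409, 307 and 65.4 CPM in wt and 240, 124 and 63.5 CPM in BMI1-KO. The groups overlapped, since wt replicate 3 lay below BMI1-KO replicates 1 and 2 in both cultures. The log2 fold change was −0.87 (SE 0.76) in both cultures (edgeR adjusted p = 0.999 in MM-MΦs and 0.976 in MΦs), with 95% intervals of −2.53 to 0.79.

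Nr1h3 (chromosome 2, 91184061 to 91202834) encodes LXRα, the LXR that is high in macrophages. It had 66.2, 56.0 and 25.8 CPM in wt MM-MΦs and 42.7, 36.2 and 17.1 CPM in BMI1-KO MM-MΦs. In MΦs it had 64.2, 50.8 and 30.4 CPM in wt and 52.6, 37.6 and 24.5 CPM in BMI1-KO. The groups overlapped in both cultures. The log2 fold changes were −0.62 (SE 0.43, edgeR adjusted p = 0.999) and −0.34 (SE 0.43, edgeR adjusted p = 0.99). With the replicate block over all 4 groups, edgeR called Nr1h3 in MM-MΦs (−0.62, SE 0.12, adjusted p = 0.0287), although the numbers were not shown to pair libraries between genotypes.

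Apoe (chromosome 7, 19696109 to 19699188) had 13882, 9789 and 5091 CPM in wt MM-MΦs and 15621, 8959 and 4317 CPM in BMI1-KO MM-MΦs, a log2 fold change of 0.01 with a 95% interval of −1.35 to 1.36. Nr1h2, the gene of LXRβ, was at −0.09 (SE 0.18) in MM-MΦs and −0.13 (SE 0.18) in MΦs. Mylip was the one efflux and LXR gene above 0 in both cultures, at 0.28 (SE 0.51) and 0.39 (SE 0.51). Soat1, which esterifies cholesterol for storage, was at −0.21 (SE 0.28) and −0.10 (SE 0.28).

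The libraries numbered 3 set this branch apart. All 6 efflux and LXR genes were lowest in replicate 3 in all 4 groups, a pattern that 1923 of 14197 genes showed (13.5%). Averaged over the groups, replicate 3 differed from the mean of replicates 1 and 2 by −1.88 on the log2 CPM scale for Abcg1, −1.44 for Apoe, −1.36 for Abca1, −1.05 for Nr1h3, −1.03 for Mylip and −0.37 for Nr1h2. The 5th percentile over all genes tested was −0.92. Among the other members, Soat1, Insig1, Hmgcs1 and Sc5d were lowest in replicate 3 in all groups, at −0.62, −0.57, −0.27 and −0.27. Fdps, the farnesyl diphosphate synthase gene, was highest in replicate 3 in all 4 groups, at 0.65, where 13.8% of all genes were.

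**Figure D4:**
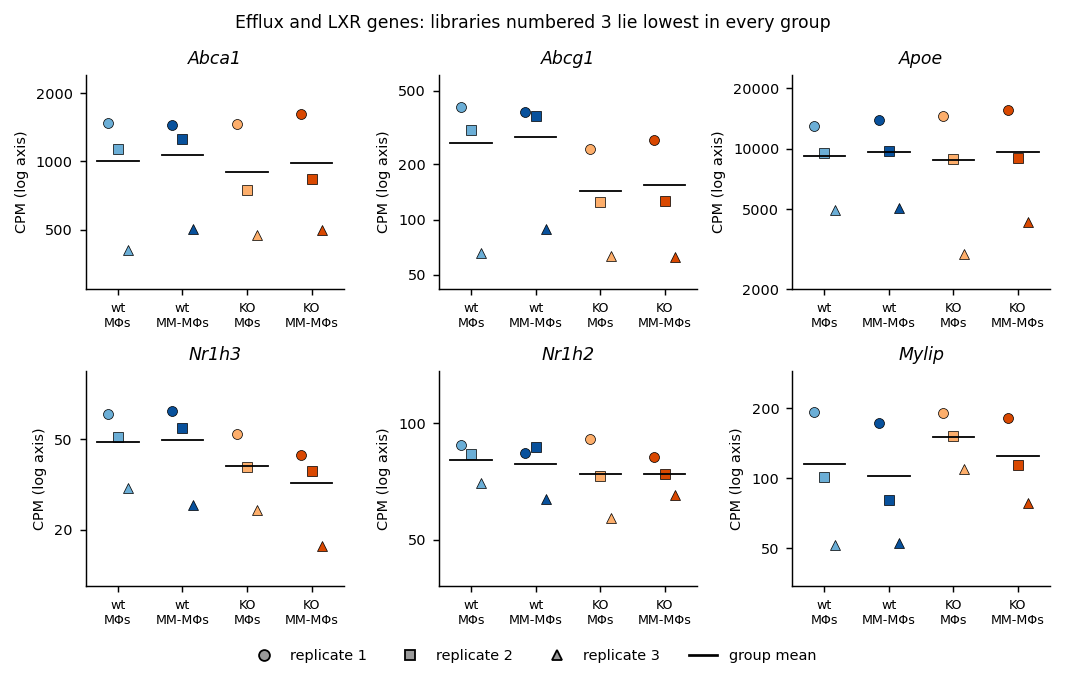
CPM on log axes of the 6 efflux and LXR genes in the 4 groups, with 1 point a library, its shape giving the replicate number, and a line at the group mean. Replicate 3 (triangles) is the lowest point of every group in every panel, such as 408 CPM of Abca1 in wt MΦs beside 1472 and 1131.

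These differences went with others across the same libraries. The first principal component of all genes tested, with 36.4% of the variance, placed the 4 libraries numbered 3 at 35.3 to 58.8 and the 4 numbered 1 at −55.2 to −31.6. All 18 proliferation genes were highest in replicate 3 in all 4 groups, with a median difference of 2.12 on the log2 scale. Their summed level in replicate 3 was 3772 CPM in wt MΦs, 3846 CPM in wt MM-MΦs, 1366 CPM in BMI1-KO MΦs and 1501 CPM in BMI1-KO MM-MΦs, against at most 1166 CPM in the other libraries. The macrophage markers moved less, with a median difference of −0.20, and 2 of 8 were lowest in replicate 3 in all groups. The part of proliferation, or of the day or batch of a culture, in the levels of the efflux genes was not tested. In bulk RNA, fewer cells that express a gene and less of its RNA per cell cannot be told apart.

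**Figure D5:**
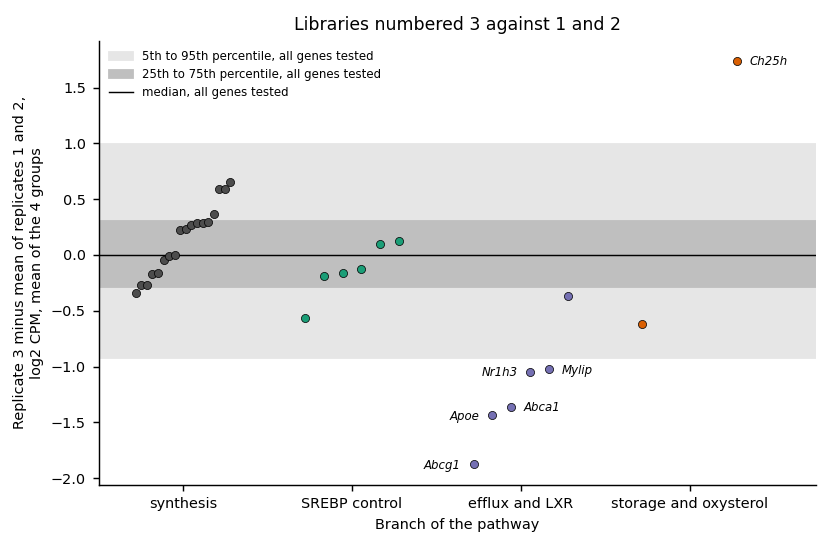
Difference of replicate 3 from the mean of replicates 1 and 2 in log2 CPM, averaged over the 4 groups (vertical axis), for each of the 32 genes by branch (horizontal axis), with grey bands for the 25th to 75th and the 5th to 95th percentile of all genes tested. Abcg1, Apoe, Abca1, Nr1h3 and Mylip lie below the 5th percentile of −0.92 and Ch25h, at 1.74, above the 95th of 0.99, while the synthesis genes lie between −0.34 and 0.65.

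No member passed the test for myeloma co-culture. In wt MM-MΦs against wt MΦs, edgeR called 0 of 32 members, against 0.0916% of all genes tested, and 0 members were at an unadjusted p under 0.05, against 1.99%. In BMI1-KO MM-MΦs against BMI1-KO MΦs it called 0 of 32, against 0.19%, with 1 member (Insig2) at an unadjusted p under 0.05, against 2.94%. DESeq2 called 0 of 32 in wt and 0 in BMI1-KO (beside 0.409% and 0.641% of all genes), as did limma-voom (beside 0.0141% and 0.176%) and edgeR with a replicate block within genotype (beside 1.1% and 2.17%). No member was free of overlap between wt MΦs and wt MM-MΦs (3.04% of all genes were higher and 2.62% lower without overlap), and in BMI1-KO cells Insig2 alone was, on the lower side, against 3.37% of all genes (and 3.71% on the higher side). The 12 plasma and B cell markers, which 5TGM1 cells could carry, summed to 136 to 385 CPM in MΦs and 289 to 620 CPM in MM-MΦs, and Igkc, an antibody light chain gene, was at 0.833 to 16 CPM and 37.9 to 137.3 CPM. Their part in the co-culture values was not tested.

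Insig2 (chromosome 1, 121304353 to 121332589), which holds SCAP in the endoplasmic reticulum, had 15.8, 16 and 15.5 CPM in BMI1-KO MΦs and 7.44, 11.5 and 13.7 CPM in BMI1-KO MM-MΦs. All MM-MΦ libraries lay below all MΦ libraries, and replicate 1 lay lowest. The log2 fold change was −0.53 (SE 0.22, edgeR adjusted p = 1.0), with an unadjusted p of 0.0311 from the same fit. In wt it had 13.5, 15.3 and 15.5 CPM in MΦs and 12, 15.1 and 12.3 CPM in MM-MΦs, at −0.17 (SE 0.22). The difference between the genotypes, −0.36 (SE 0.31, edgeR adjusted p = 1.0), did not pass.

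The synthesis genes lay slightly above 0 on co-culture, with a median log2 fold change of 0.12 in wt (13 of 18 above 0) and 0.06 in BMI1-KO (15 of 18 above 0), beside 0.003 and −0.007 for all genes tested. None passed the test, and with upper quartile scaling these counts were 12 and 14. In wt, the smallest unadjusted p on the higher side were those of Msmo1 at 0.27 (SE 0.20), Sqle at 0.21 (SE 0.23) and the thiolase gene Acat2 at 0.35 (SE 0.42). Msmo1 had 63.3, 97.5 and 69.4 CPM in wt MΦs and 89.7, 105.6 and 81.4 CPM in wt MM-MΦs, so that each MM-MΦ library was above the MΦ library of its number while the groups overlapped. In BMI1-KO, Mvd had 9.58, 6.86 and 5.35 CPM in MΦs and 9.14, 13.2 and 10.1 CPM in MM-MΦs. Replicates 2 and 3 were higher on co-culture and replicate 1 was not. The log2 fold change was 0.58 (SE 0.28, edgeR adjusted p = 1.0).

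The efflux and LXR genes had medians of 0.04 in wt and 0.05 in BMI1-KO on co-culture, with 4 of 6 above 0 in each. With upper quartile scaling, 3 of 6 were above 0 in BMI1-KO. Abca1 was at 0.09 (SE 0.59) and 0.13 (SE 0.59), Abcg1 at 0.10 (SE 0.75) in both, and Apoe at 0.07 (SE 0.62) and 0.13 (SE 0.62). Apoe was higher in the MM-MΦ library for 3 of 3 numbers in wt and 3 of 3 in BMI1-KO, by 0.03 to 0.10 on the log2 scale in wt and 0.02 to 0.53 in BMI1-KO. Soat1 and Insig2 were lower for 3 of 3 numbers in each genotype. How many of all genes moved 1 way in every pair was not counted, here or for Ch25h and Msmo1, so these directions are descriptions only. Scap was at −0.17 (SE 0.15) and Ebp at −0.13 (SE 0.17) in wt, and Soat1 at −0.21 (SE 0.28), Idi1 at −0.33 (SE 0.31) and Srebf2 at 0.18 (SE 0.13) in BMI1-KO.

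The interaction, which asks whether the response to co-culture differed between genotypes, called 0 of 32 members with edgeR, DESeq2 and limma-voom, against 0% of all genes tested. No member was at an unadjusted p under 0.05, against 0.909%. The members with the smallest unadjusted p were Mvd at 0.56 (SE 0.39), Insig2 at −0.36 (SE 0.31), Ebp at 0.28 (SE 0.25), Tm7sf2 at −0.40 (SE 0.43), Scap at 0.19 (SE 0.21) and Msmo1 at −0.19 (SE 0.28).

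Further genes of fatty acid and lipoprotein handling and of sterol transport, 34 in all, were read from the same fits. None of the 34 was called by edgeR, DESeq2 or limma-voom in any of the 5 comparisons. Of all genes, edgeR called at most 0.19%, DESeq2 at most 0.641% and limma-voom at most 0.176% in a comparison. By edgeR, 2 of the 34 were at an unadjusted p under 0.05 in BMI1-KO MΦs against wt MΦs, against 5.77% of all genes. The other comparisons had fewer. The median log2 fold change between genotypes was −0.03 in both cultures, as for the members (−0.03 in MM-MΦs and −0.05 in MΦs).

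Counts of some members are uncertain because their exons overlap those of other genes, and for overlaps on opposite strands because the strand setting is not stated. Fdft1, the squalene synthase gene, shares 18.3% of its exonic bases with Ctsb on the opposite strand, which had up to 153835 counts in a library. Cyp51, the lanosterol demethylase gene, shares 3.76% with Akap9 on the opposite strand. Scap shares 13.2% and Hmgcs1 12.1% with opposite-strand genes that had at most 5 and 3 counts in a library. On the same strand, where the strand setting makes no difference, Tm7sf2 shares 12.1% with Vps51 and Fdps 26.7% with Gm43738, which had 0 counts. In the BMI1-KO libraries the target Bmi1 is listed at 0 counts, beside 251 to 364 counts in wt. The totals implied by the FPKM values exceeded the summed counts by 512 to 734 in these libraries and by none in wt, so that zero was not used to check the genotype.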

How the data were processed

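RNA-seq values of 12 libraries were used. The authors deposited raw counts per gene and FPKM values. Per the labels, reads were trimmed with cutadapt 1.9.1, aligned to GRCm38 (mm10) with HISAT2 2.0.1 and counted with HTSeq 0.6.1, and DESeq2 was named for normalization. No strand setting is stated. Counts were tested with edgeR 4.0.16 (R 4.3.3) in 1 quasi-likelihood fit of the 4 groups with TMM scaling, after filterByExpr (minimum count 10, minimum total 15), and adjusted over 14197 genes at 0.05. Fold changes of each gene were read from that fit. FPKM served only to compare levels between genes. Alternatives were DESeq2 1.42.0, limma-voom 3.58.1, other scalings, filters and blocks, and leaving out libraries. The fits were also run on simulated counts of independent libraries, without replicate structure and with changes only in genes of higher counts. That check does not cover Ch25h or the spread of the efflux genes between replicate numbers.

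Within a genotype the replicate numbers were read as pairing the 2 cultures (correlations of deviations 0.18 to 0.725 across genes, with replicate 2 at 0.361 in wt and 0.18 in BMI1-KO). They were not read as pairing genotypes. Between genotypes the correlations were 0.481 to 0.508 for replicates 1 and 3, and −0.0313 in MΦs and 0.0331 in MM-MΦs for replicate 2. No source used here states a pairing. Motifs came from RefSeq promoters of GRCm38.p6. Every member was accounted for, and those named singly were the 3 with the smallest unadjusted p in each direction, Ch25h, Hmgcs1, Sqle, Abca1, Abcg1 and Apoe. Dhcr7, Idi1 and Insig2 were also named for libraries that did not overlap, and members singled out by replicate 3 or by level were chosen after their values were seen. The members and lists were chosen with earlier results of these data known. With 3 libraries against 3, an exact permutation test cannot go below a two-sided p of 0.1, so none was used.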

Additional observations from a re-analysis of the deposited data

Results flagged for a closer look

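Ebp, the gene of a sterol isomerase, was lower in the MM-MΦ library than in the MΦ library of the same number for 3 of 3 numbers in wt (by 0.02, 0.15 and 0.20 on the log2 CPM scale) and higher for 3 of 3 in BMI1-KO (by 0.05, 0.05 and 0.34). The mean differences of the genotypes were 0.266 apart. All pairs moved in opposite directions, which is what singled it out among the 32 members. How many of all genes show this pattern was not counted, so it is not read as a trait of Ebp. The test of the difference itself gave 0.28 (SE 0.25, edgeR adjusted p = 1.0) and did not pass. Groups of 3 libraries are too small for a test of single outlying values.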

How the results depend on the processing

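The count of members called was 0 in all 5 comparisons and stayed so in 85 of 88 alternatives. DESeq2 called 1 (Ch25h) between BMI1-KO and wt MM-MΦs. With the replicate block over all 4 groups, 2 were called there (Ch25h and Nr1h3) and 1 in BMI1-KO MΦs against wt MΦs (Ch25h). The block within genotype changed no other call of a member. With a library left out, the count ranged from 0 to 0. Of single members, 965 values kept their direction or moved within 1 SE of an uncalled value. Some of the latter changed sign. Between genotypes in MM-MΦs, Apoe kept its sign in 12 of 16 alternatives and Abca1 in 13 of 16. A change of sign with a move of more than 1 SE came 3 times. Without wt MM-MΦ replicate 2, Hmgcs1 turned between genotypes in MM-MΦs (0.0905) and from wt MΦs to wt MM-MΦs (−0.0570). Without BMI1-KO MM-MΦ replicate 3, Ch25h turned from BMI1-KO MΦs to MM-MΦs (−0.684). With each library left out these 3 values ranged from −0.191 to 0.0905, from −0.0570 to 0.324 and from −0.684 to 3.06. The cause was not tested. Counts over all genes depended more on the choice. In BMI1-KO against wt they were 9 in MM-MΦs and 7 in MΦs, 89 and 78 with DESeq2, 181 and 206 with the block over all 4 groups, 21 and 14 with no filter, and 4 and 2 with only the 6 libraries. For co-culture they were 13 in wt and 27 in BMI1-KO, 58 and 91 with DESeq2, 63 and 110 with the block over all 4 groups, 156 and 308 with the block within genotype, 22 and 42 with no filter, and 6 and 0 with only the 6 libraries, and limma-voom called 2 in wt. The interaction had 0, and 1 with the block within genotype. With a library left out these counts ran from 3 to 6, 2 to 4, 0 to 3, 4 to 23 and 0 to 0 in the same order. Ch25h is limited by depth in wt, with at most 5 counts in a library.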
